A study of Mus musculus with 16 samples.

Results

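The genes described here encode the best known effectors of the mechanistic target of rapamycin complex 1 (mTORC1), together with their close relatives, in the cortex of 5xFAD mice fed rapamycin or vehicle. They were taken from the count table by symbol, by a rule that names the genes and uses no measured value. There were 10 such genes among the 47593 listed, and all 10 passed the filter on low counts. They comprised the S6 kinases Rps6kb1 and Rps6kb2, the 4E-binding proteins Eif4ebp1 and Eif4ebp2, the p90 ribosomal S6 kinases (RSKs) Rps6ka1, Rps6ka2 and Rps6ka3, and the effectors Pdcd4, Larp1 and Maf1.

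Bulk RNA of cortex was sequenced in 16 libraries, 4 for each sex on each diet. Libraries are named by sex, diet and number. All mice carried the 5xFAD transgenes, which include human APP with the Swedish, Florida and London mutations, driven by the neuronal Thy-1 promoter on a C57BL/6-SJL hybrid background. The model is heterozygous and forms amyloid plaques, and the vehicle mice carried the same transgenes as the rapamycin mice. The rapamycin diet held microencapsulated rapamycin and the vehicle diet its carrier, and both were given from 2 months of age until the cortex was taken at 5 months. No mice without the transgenes were analysed here. The study's text also speaks of pooling cortical samples for sequencing, so a library may hold RNA of more than 1 mouse, and p-values measure the spread between these libraries.

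mTORC1 is a protein kinase that couples nutrients and growth factors to protein synthesis, and rapamycin, bound to FKBP12, blocks part of its activity. It activates the S6 kinases, which phosphorylate ribosomal protein S6 and factors of translation initiation, and it inactivates the 4E-binding proteins, which otherwise hold the cap-binding protein eIF4E. RSKs also phosphorylate S6 but are switched on by ERK and PDK1. PDCD4 inhibits the helicase eIF4A and is marked for degradation by S6 kinase, LARP1 binds the 5′ ends of ribosomal protein mRNAs, and MAF1 represses RNA polymerase III. All of these are regulated chiefly by phosphorylation, which mRNA counts do not measure. In neurons the same proteins are known for their part in translation near synapses.

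LARP1 binds the start of ribosomal protein mRNAs, and these genes are set beside the members below. Many of these mRNAs begin with a C that opens a run of pyrimidines, called the 5′ terminal oligopyrimidine motif. The first 20 bases from annotated RefSeq starts (GRCm38.p6) are given for 3 ribosomal protein genes named below, for Rps6, whose protein is the S6 kinase substrate, and for the members Larp1, Eif4ebp2 and Rps6kb1. Capitals mark a run of at least 5 C or T that opens with C at the first base, on the transcribed strand only.
Rps6 (chr4:86857348-86857367, minus strand): CTCTTTTTCgtgacgcctcc
Rpl14 (chr9:120571517-120571536, plus strand): CTTCTCgctgagcgccgcca
Rplp2 (chr7:141447651-141447670, plus strand): CTTTCgccgccggacgccgc
Rps15 (chr10:80292431-80292450, plus strand): gataactgcgcaagcgcagc
Larp1 (chr11:58009064-58009083, plus strand): gagccttctgcccggcgcgc
Eif4ebp2 (chr10:61452650-61452669, minus strand): cgaccgggcgagagcaggcg
Rps6kb1 (chr11:86544788-86544807, minus strand): tgaacttgaggagccagtct
Rps6, Rpl14 and Rplp2 open with such a run, of 9, 6 and 5 bases, and the other 4 starts do not. The run stood at 15 of 80 annotated starts of ribosomal protein genes (18.8%), at 823 of all 32851 starts (2.51%) and at 0 of the 9 starts of the 6 members with an entry. A match depends on the annotated first base, so a start without a match says only that these letters are not at that position.

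The 16 libraries held between 16393501 and 20593089 counted read pairs. A gene's level is given as CPM, the gene's share of all counts scaled to a common total, with edgeR's TMM-scaled library sizes, and the lowest count of any member in any library was 43 read pairs, for Eif4ebp1. By label 11 libraries belong to batch 1, and batch 2 holds the 5 others (female rapamycin 4 and 5, female vehicle 4, male vehicle 4 and male rapamycin 4). In the library labelled male rapamycin 4 9935 read pairs fell on Xist and 0 on 4 Y-linked genes, which goes against its label as a male. The markers of glutamatergic neurons summed to between 4050 and 6090 CPM in the 16 libraries, and Slc17a7, which defines cortical excitatory neurons, had a median of 1652 CPM. The markers of choroid plexus summed to 2011 CPM in male vehicle 4 and to between 15.6 and 331 CPM elsewhere. The female rapamycin 1, female rapamycin 2 and male rapamycin 2 libraries stood apart from the other 13 in exon length slope, mitochondrial share and astrocyte markers. Their markers of astrocytes summed to 3182 to 3635 CPM, against 3780 to 6186 CPM in the other 13. Their exon length slopes, the change of log2 CPM relative to the mean library per doubling of a gene's exon length, were -0.13 to -0.12 against -0.03 to 0.10, and their mitochondrial transcripts made up 6.88% to 6.99% of read pairs against 2.64% to 5.47%.

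Rapamycin and vehicle mice were first compared over both sexes, with edgeR's quasi-likelihood test and the terms sex, batch and treatment. Of the 10 members, Rps6ka3 fell with rapamycin and the other 9 did not pass an adjusted p of 0.05. Over all 16553 genes tested, 13.3% passed (6.86% lower and 6.46% higher), so that 1 of 10 members is close to the share of all genes. With the further requirement of a 1.5-fold change, which defines a differentially expressed gene (DEG), 0 of 10 members passed, against 2.26% of all genes. DESeq2 called 3 members (Rps6ka3, Larp1 and Maf1) and 21.9% of the 14303 genes to which it gave an adjusted p. At an unadjusted p under 0.05 in edgeR there were 5 members (Rps6kb2, Eif4ebp2, Rps6ka3, Larp1 and Maf1), against 30.4% of all genes. The ranges of the 8 rapamycin and 8 vehicle libraries overlapped for all 10 members, and for all but 0.489% of the genes tested. The median log2 fold change was -0.07 over the members and 0.02 over all genes, and 6 members lay below 0 against 47.7% of all genes.

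**Figure D1:**
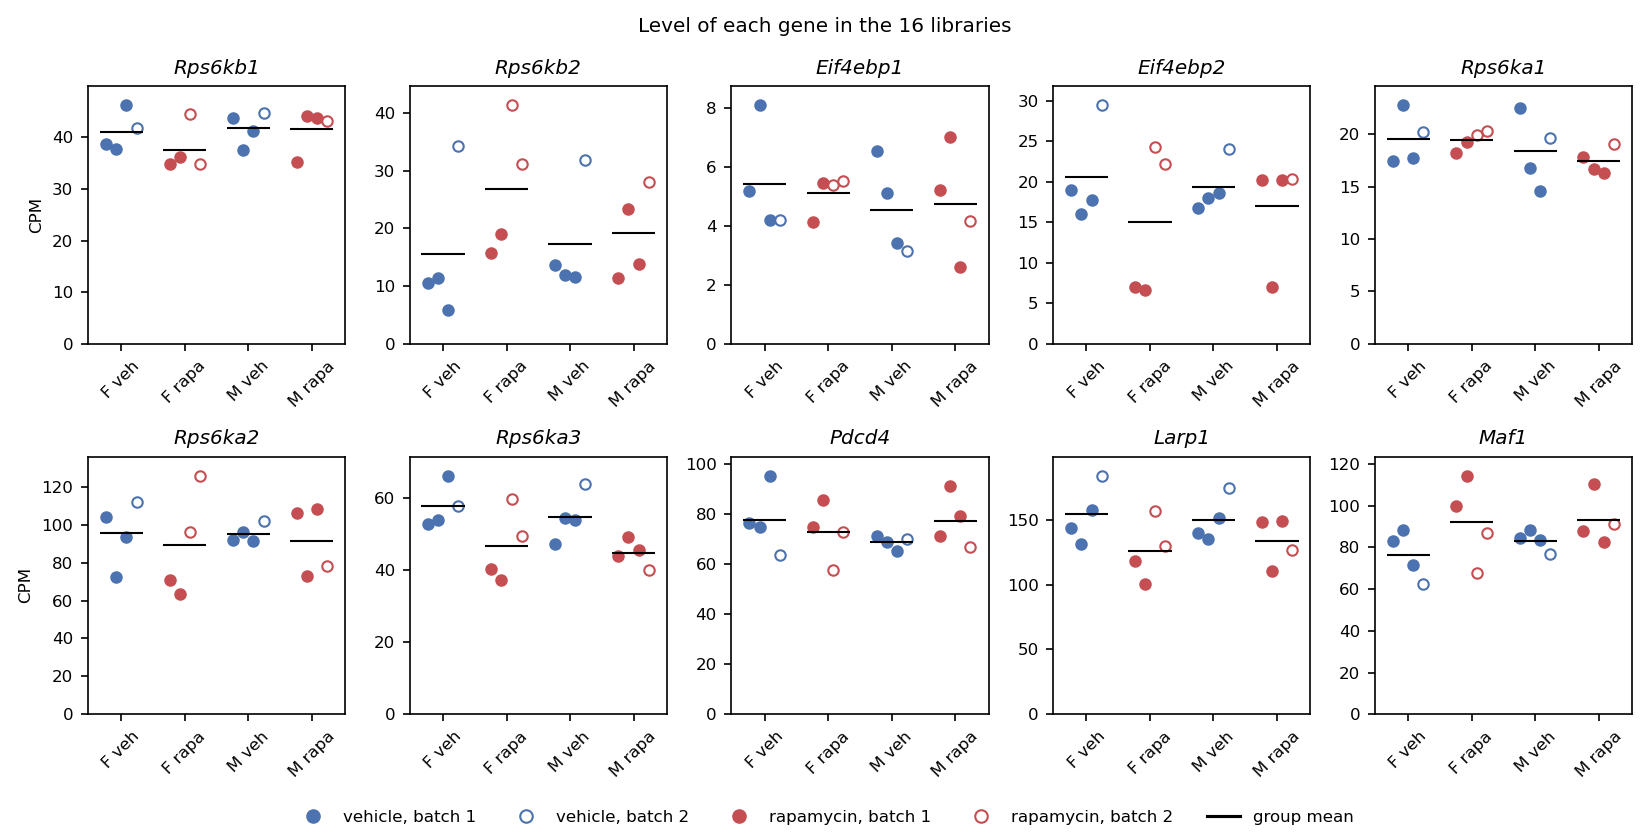
Level of each of the 10 genes in CPM (y axis, from 0) in the 4 groups (x axis; F female, M male, veh vehicle, rapa rapamycin). Each point is a library, filled for batch 1 and open for batch 2, and black lines are group means of 4 libraries. Eif4ebp2 lies at 6.63 to 7.06 CPM in 3 rapamycin libraries and at 16.01 CPM or more in the other 13, and Rps6kb2 is higher in every open point than in any filled one.

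Levels per kilobase of exon order the members without regard to treatment. Maf1 was highest, with 35.7 ± 5.71 CPM per kilobase (SD, n = 16), followed by Pdcd4 with 29.0 ± 3.90, Larp1 with 20.6 ± 3.23 and Rps6ka2 with 17.2 ± 3.21. Each of these was above the next in at least 14 of the 16 libraries, and Rps6ka2 was above Eif4ebp2 in 16 of 16. Eif4ebp2 followed with 10.1 ± 3.59 CPM per kilobase, Rps6kb2 with 8.05 ± 4.31, Rps6ka3 with 6.13 ± 1.02, Eif4ebp1 with 5.05 ± 1.47, Rps6kb1 with 4.68 ± 0.463 and Rps6ka1 with 4.397 ± 0.517. Adjacent genes among these 6 were not clearly ordered, each being above the next in only 9 to 11 of 16 libraries. Genes further apart in the order were not compared in this way. The spread over libraries also differed between members. The coefficient of variation of CPM was 53.6% for Rps6kb2, 35.7% for Eif4ebp2 and 29.1% for Eif4ebp1, and between 9.89% (Rps6kb1) and 18.7% (Rps6ka2) for the other 7.

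The S6 kinases were compared first. Rps6kb1 encodes S6K1, the kinase whose phosphorylation is the usual readout of mTORC1, and lies at chr11:86498871-86544805 on the minus strand (GRCm38). Its level was 38.6, 37.8, 46.2 and 41.8 CPM in female vehicle 1 to 4, and 34.8, 36.2, 44.6 and 34.9 CPM in female rapamycin 1, 2, 4 and 5. Male vehicle 1 to 4 had 43.7, 37.6, 41.2 and 44.7 CPM, and the libraries labelled male rapamycin 1 to 4 had 35.2, 44.2, 43.8 and 43.2 CPM. The lowest 4 libraries were all from rapamycin mice, but the other 4 rapamycin libraries lay among the vehicle libraries. The log2 fold change was -0.08 (SE 0.08, 95% interval -0.24 to 0.08), with an adjusted p of 0.515 in edgeR's quasi-likelihood test. Rnft1 lies on the other strand over 1.79% of its exon length, where the reads of both genes cannot be told apart.

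Rps6kb2 encodes S6K2, the second S6 kinase, and lies at chr19:4156713-4163354 on the minus strand. Its level was 10.6, 11.3, 5.93 and 34.3 CPM in female vehicle 1 to 4, and 15.7, 18.98, 41.4 and 31.1 CPM in female rapamycin 1, 2, 4 and 5. It was 13.7, 11.96, 11.5 and 31.9 CPM in male vehicle 1 to 4, and 11.4, 23.3, 13.8 and 28.0 CPM in the libraries labelled male rapamycin 1 to 4. The 5 libraries of batch 2 were the 5 highest, at 28.0 to 41.4 CPM, and the 11 of batch 1 reached 23.3 CPM at most. Within batch 1 the vehicle libraries lay between 5.93 and 13.7 CPM and the rapamycin libraries between 11.4 and 23.3 CPM. With batch as a term the log2 fold change was 0.43 (SE 0.17, 95% interval 0.07 to 0.79), with an adjusted p of 0.0999 in edgeR. It was 0.62 within batch 1 (adjusted p = 0.0749, edgeR) and -0.03 within batch 2 (adjusted p = 0.976, edgeR), where 3 rapamycin and 2 vehicle libraries were compared. The highest 3 rapamycin libraries of batch 1 were female rapamycin 1, female rapamycin 2 and male rapamycin 2, and without them the log2 fold change was 0.10 (adjusted p = 0.836, edgeR), an alternative chosen after seeing the data.

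The ratio of the S6 kinases moved with Rps6kb2. On the log2 scale of CPM per kilobase, Rps6kb1 over Rps6kb2 ran from -0.90 to 1.14 in batch 1 and from -1.72 to -1.20 in batch 2. Rps6kb2 was thus the more abundant mRNA per kilobase in all 5 libraries of batch 2, while 3 of the 11 libraries of batch 1 (female vehicle 1 and 3 and male vehicle 3) had more Rps6kb1.

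The 4E-binding proteins followed. Eif4ebp1 encodes 4E-BP1, the repressor that releases eIF4E once mTORC1 has phosphorylated it, and lies at chr8:27260327-27275656 on the plus strand. It had the fewest read pairs of the 10 members. Its level was 5.18, 8.09, 4.19 and 4.21 CPM in female vehicle 1 to 4, and 4.13, 5.44, 5.37 and 5.501 CPM in female rapamycin 1, 2, 4 and 5. In the libraries labelled male it was 6.54, 5.10, 3.40 and 3.13 CPM with vehicle and 5.21, 6.996, 2.59 and 4.17 CPM with rapamycin. High and low libraries occurred in each diet. The log2 fold change was 0.04 (SE 0.21, 95% interval -0.40 to 0.47), with an adjusted p of 0.926 in edgeR, so that changes of Eif4ebp1 within this interval were not resolved by these libraries.

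Eif4ebp2 encodes 4E-BP2, the main 4E-binding protein of the brain, and lies at chr10:61432497-61452669 on the minus strand. Its level was 18.96, 16.01, 17.7 and 29.5 CPM in female vehicle 1 to 4, and 6.99, 6.63, 24.3 and 22.2 CPM in female rapamycin 1, 2, 4 and 5. It was 16.8, 17.97, 18.6 and 24.0 CPM in male vehicle 1 to 4, and 20.3, 7.06, 20.2 and 20.4 CPM in the libraries labelled male rapamycin 1 to 4. In 3 rapamycin libraries, female rapamycin 1 and 2 and male rapamycin 2, it stood at 6.63 to 7.06 CPM, and the other 13 libraries had 16.01 to 29.5 CPM with none in between. The other 5 rapamycin libraries, at 20.2 to 24.3 CPM, lay within the range of the vehicle libraries. Over both sexes the log2 fold change was -0.48 (SE 0.21, 95% interval -0.93 to -0.03), with an adjusted p of 0.136 in edgeR. Without the 3 libraries, again an alternative chosen after seeing the data, it was -0.01 (adjusted p = 0.982, edgeR). These are the 3 libraries with the lowest exon length slopes and the highest mitochondrial shares, and the part of either in the result was not tested. In the same libraries the markers of oligodendrocytes summed to 6098 to 9465 CPM (3631 to 6553 CPM in the other 13) and those of astrocytes to 3182 to 3635 CPM (3780 to 6186 CPM in the other 13). Those of GABAergic neurons summed to 939 to 1012 CPM (691 to 939 CPM in the other 13) and those of striatum to 194 to 323 CPM (116 to 263 CPM). The ranges overlapped for every marker list other than that of astrocytes. The part of these cells and regions was not tested either, and in bulk RNA fewer cells of a type cannot be told apart from less RNA per cell.

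The balance between the 4E-binding proteins differed accordingly. On the log2 scale of CPM per kilobase, Eif4ebp2 exceeded Eif4ebp1 in 13 of 16 libraries, by 0.12 to 2.09. The exceptions were female rapamycin 1 (-0.11), female rapamycin 2 (-0.58) and male rapamycin 2 (-0.85).

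The RSKs gave the single call. Rps6ka3 encodes RSK2, the kinase lost in Coffin-Lowry syndrome with its intellectual disability, and lies at chrX:159210307-159368244 on the plus strand. Its level was 52.9, 54.0, 66.3 and 57.7 CPM in female vehicle 1 to 4, and 40.2, 37.1, 59.9 and 49.6 CPM in female rapamycin 1, 2, 4 and 5. It was 47.4, 54.4, 53.8 and 64.0 CPM in male vehicle 1 to 4, and 43.8, 49.1, 45.6 and 40.1 CPM in the libraries labelled male rapamycin 1 to 4. Of the 8 rapamycin libraries, 5 lay below the lowest vehicle library (47.4 CPM), and only female rapamycin 4 lay among the upper vehicle libraries. The vehicle mean of 56.3 ± 6.17 CPM fell to 45.7 ± 7.23 CPM in rapamycin mice (SD, n = 8 each), which the fit gave as a fold change of 0.798. The log2 fold change was -0.33 (SE 0.09, 95% interval -0.52 to -0.14), with an adjusted p of 0.0274 in edgeR. It was -0.35 within batch 1 (adjusted p = 0.0542, edgeR) and -0.33 within batch 2 (adjusted p = 0.696, edgeR). The call was lost without female rapamycin 1 (adjusted p = 0.0688, edgeR), female rapamycin 2 (0.0665) or male vehicle 4 (0.0690). Without the 3 libraries named above, an alternative chosen after seeing the data, the log2 fold change was -0.27 (adjusted p = 0.288, edgeR). Only 1 of 17233 genes passed in that fit. The call was also lost without a batch term (adjusted p = 0.115, edgeR) and when either covariate was added, the mitochondrial share (0.622) or the slope on exon length (0.954).

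Rps6ka2 encodes RSK3 and was the most abundant RSK, at chr17:7170115-7303313 on the plus strand. Its level lay between 72.5 and 112 CPM in the 8 vehicle libraries (median 94.9) and between 63.6 and 126 CPM in the 8 rapamycin libraries (median 87.3). The rapamycin libraries reached both below and above the vehicle libraries, and the log2 fold change was -0.12 (SE 0.12, 95% interval -0.37 to 0.14, adjusted p = 0.557 in edgeR). Rps6ka1 encodes RSK1, at chr4:133847290-133887797 on the minus strand, and lay between 14.6 and 22.8 CPM with vehicle (median 18.7) and between 16.4 and 20.4 CPM with rapamycin (median 18.7). All its rapamycin libraries fell inside the range of the vehicle libraries, and the log2 fold change was -0.06 (SE 0.09, 95% interval -0.24 to 0.13, adjusted p = 0.715 in edgeR). Of the RSK mRNA per kilobase, Rps6ka2 made up 61.7% ± 4.29, Rps6ka3 22.2% ± 2.84 and Rps6ka1 16.1% ± 2.94 (SD, n = 16). The share of Rps6ka3 was 23.5% ± 2.33 with vehicle and 20.9% ± 2.84 with rapamycin (SD, n = 8 each), and the ranges of both diets overlapped.

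The remaining effectors act on initiation, on ribosomal protein mRNAs and on RNA polymerase III. Larp1 encodes LARP1, which mTORC1 phosphorylates, and lies at chr11:58009064-58062034 on the plus strand. Its level was 144, 132, 157 and 184 CPM in female vehicle 1 to 4, and 118, 100.1, 157 and 129.5 CPM in female rapamycin 1, 2, 4 and 5. It was 139.7, 135, 151 and 175 CPM in male vehicle 1 to 4, and 148, 111, 149 and 127 CPM in the libraries labelled male rapamycin 1 to 4. The 3 libraries with low Eif4ebp2 were also the 3 lowest here, at 100.1 to 118 CPM against 127 CPM or more in the others. The log2 fold change was -0.25 (SE 0.09, 95% interval -0.44 to -0.07), with an adjusted p of 0.0637 in edgeR and of 0.0316 in DESeq2. It also passed in edgeR without female rapamycin 4 (adjusted p = 0.0348), male rapamycin 1 (0.0303) or male rapamycin 3 (0.0247). Without the 3 lowest libraries, an alternative chosen after seeing the data, the log2 fold change was -0.14 (adjusted p = 0.543, edgeR). Leaving out the lowest libraries, all from rapamycin mice, makes such a fall smaller by itself.

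Maf1 encodes the repressor of RNA polymerase III, which mTORC1 keeps inactive, and lies at chr15:76351294-76354380 on the plus strand. Its level was 82.9, 88.4, 71.7 and 62.7 CPM in female vehicle 1 to 4, and 99.8, 114, 67.5 and 86.7 CPM in female rapamycin 1, 2, 4 and 5. It was 84.4, 88.5, 83.5 and 76.9 CPM in male vehicle 1 to 4, and 87.9, 111, 82.6 and 91.2 CPM in the libraries labelled male rapamycin 1 to 4. The highest 3 were the same 3 rapamycin libraries, at 99.8 to 114 CPM against 91.2 CPM or less in the others. The log2 fold change was 0.25 (SE 0.09, 95% interval 0.06 to 0.43), with an adjusted p of 0.0659 in edgeR and of 0.0451 in DESeq2. It passed in edgeR without female rapamycin 4 (adjusted p = 0.0255), male rapamycin 1 (0.0448) or male rapamycin 3 (0.0266). Without the 3 highest libraries, an alternative chosen after seeing the data, the log2 fold change was 0.09 (adjusted p = 0.709, edgeR). Leaving out the highest libraries, all from rapamycin mice, makes such a rise smaller by itself.

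Pdcd4 encodes the inhibitor of eIF4A and lies at chr19:53892231-53929861 on the plus strand. Its level lay between 63.5 and 95.3 CPM in vehicle libraries (median 70.6) and between 57.5 and 91.3 CPM in rapamycin libraries (median 73.9). The diets overlapped nearly throughout, with a log2 fold change of 0.06 (SE 0.08, 95% interval -0.11 to 0.24, adjusted p = 0.656 in edgeR). Bbip1 lies on the other strand over 7.24% of the exon length of Pdcd4. The reads of both genes cannot be told apart there, since strand was not used in the counting.

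**Figure D2:**
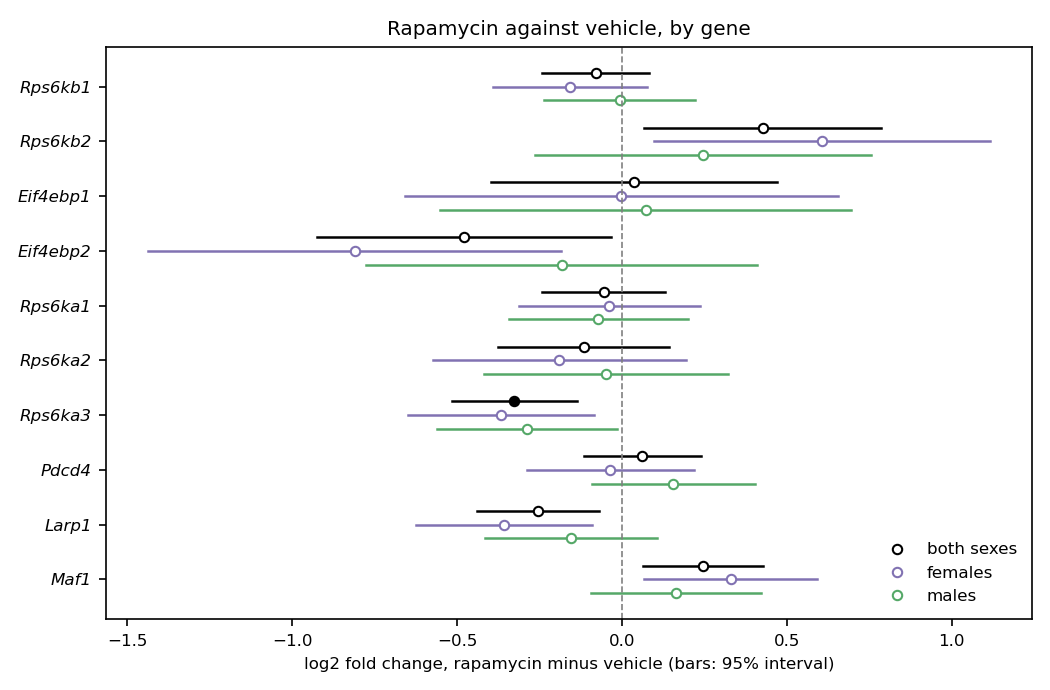
Log2 fold change of each gene, rapamycin minus vehicle (x axis), over both sexes (black), in females (purple) and in males (green), with bars for the 95% interval. Filled points passed an adjusted p of 0.05, which only Rps6ka3 did over both sexes, at -0.33, and no gene did within a sex.

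The sexes were then compared in a fit with the 4 groups and batch as terms. In females 0 of 10 members passed an adjusted p of 0.05 in edgeR, against 0.0121% of all genes, and 5 members had an unadjusted p under 0.05 (23.1% of all genes). These were Eif4ebp2 with a log2 fold change of -0.81 (SE 0.30), Rps6kb2 with 0.61 (SE 0.24), Rps6ka3 with -0.37 (SE 0.13), Larp1 with -0.36 (SE 0.13) and Maf1 with 0.33 (SE 0.12), all with adjusted p between 0.1102 and 0.145. The 2 female rapamycin libraries with low exon length slopes are 2 of the 4 in that group. DESeq2 called 1 member in females, Eif4ebp2 (adjusted p = 0.0410), where it called 11% of the 13660 genes to which it gave an adjusted p. Without female rapamycin 4 edgeR called 4, Eif4ebp2, Rps6ka3, Larp1 and Maf1, and 12.6% of all genes. The number at an unadjusted p under 0.05 was 3 when female rapamycin 1 was left out (2684 of all 16865 genes) and 0 when female rapamycin 2 was (2593 of 16864 genes). It was also 0 in the fit lacking a batch term (2282 of 16553 genes). The same held with mitochondrial share (1279 of 16553 genes) or the slope on exon length (628 of 16553 genes) as a covariate. In males 0 of 10 passed, against 0% of all genes, and 1 had an unadjusted p under 0.05 (12% of all genes), Rps6ka3 with -0.29 (SE 0.13, adjusted p = 0.395 in edgeR). Without the library labelled male rapamycin 4, whose Xist and Y-linked counts go against its label and whose Rps6ka3 level of 40.1 CPM was the lowest of its group, 0 members had an unadjusted p under 0.05 in edgeR (1154 of 16861 genes) and Rps6ka3 had -0.17 (SE 0.13, adjusted p = 0.748).

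The difference between the sexes was itself tested as the interaction of sex and rapamycin. For this 0 of 10 members had an adjusted p under 0.05 and 0 an unadjusted p under 0.05 in edgeR, against 0% and 2.17% of all genes. The largest difference was that of Eif4ebp2, where the log2 fold change in females minus that in males was -0.63 (SE 0.41, 95% interval -1.49 to 0.23), so these data did not resolve whether its response differed. Without the library labelled male rapamycin 4 it was -0.84 (SE 0.43, adjusted p = 0.997 in edgeR), and again 0 members had an unadjusted p under 0.05 (528 of 16861 genes). The number of members at that unadjusted threshold was 2 without male rapamycin 2 (973 of all 16883 genes). It was 1 with the mitochondrial share as a covariate (408 of 16553 genes) and 1 without the filter on low counts (1309 of 30248 genes). Female and male vehicle mice were compared last, and again 0 of 10 members passed the adjusted and 0 the unadjusted threshold in edgeR, against 0.0121% and 3.55% of all genes. The log2 differences, female minus male, ran from -0.25 for Rps6kb2 to 0.26 for Eif4ebp1. DESeq2 likewise called 0 members in males, for the interaction and between the vehicle groups. Of the genes to which it gave an adjusted p, it called 0.218%, 0% and 0.0544% in these comparisons. Rps6ka3, on the X chromosome, had 57.7 ± 6.05 CPM in female and 54.9 ± 6.83 CPM in male vehicle mice (SD, n = 4 each), a log2 difference of 0.08 (SE 0.13).

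Fold changes of the members were set beside exon length, which the choice of genes did not use. When the genes tested were put into 10 groups of equal size by exon length, the median log2 fold change over both sexes went from 0.27 in the shortest (up to 1334 bases) to -0.20 in the longest (from 8844 bases), falling at each step. Rps6ka3 (8322 bases, log2 fold change -0.33), Larp1 (6829 bases, -0.25) and Rps6kb1 (8658 bases, -0.08) fell into the group with a median of -0.12. Maf1 (2412 bases, 0.25), Rps6kb2 (2445 bases, 0.43) and Pdcd4 (2556 bases, 0.06) fell into that with a median of 0.13. Rps6ka1 (-0.06) and Rps6ka2 (-0.12) lay in groups with medians of -0.0020 and -0.03. The 4E-binding proteins lay below their length groups, Eif4ebp1 (981 bases) with 0.04 (SE 0.21) against a median of 0.27 and Eif4ebp2 (1786 bases) with -0.48 against 0.19. Gaps to the group median were not particular to the 4E-binding proteins, as the values of Rps6kb2, Rps6ka3 and Larp1 show. With the exon length slope of each library as a covariate, 0 members and 0 of all genes passed in edgeR (965 genes at an unadjusted p under 0.05), and the log2 fold change was -0.11 for Rps6ka3, 0.06 for Larp1, -0.11 for Maf1 and 0.26 for Eif4ebp2. Slopes ran from -0.13 to 0.06 in rapamycin libraries and from 0.00040 to 0.10 in vehicle libraries, so slope and diet were not independent.

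**Figure D3:**
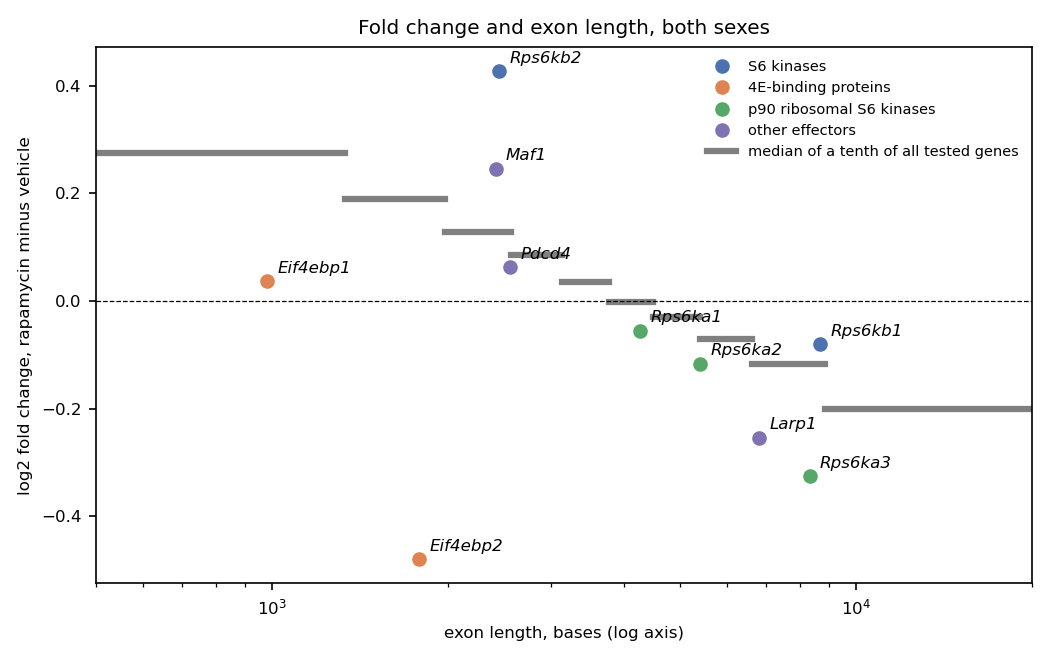
Log2 fold change over both sexes (y axis) against exon length in bases (x axis, log scale). Points are the 10 genes, coloured by role, and grey bars are the medians of 10 equal groups of all tested genes, which run from 0.27 to -0.20; Eif4ebp2 at -0.48 lies furthest below its bar.

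**Figure D4:**
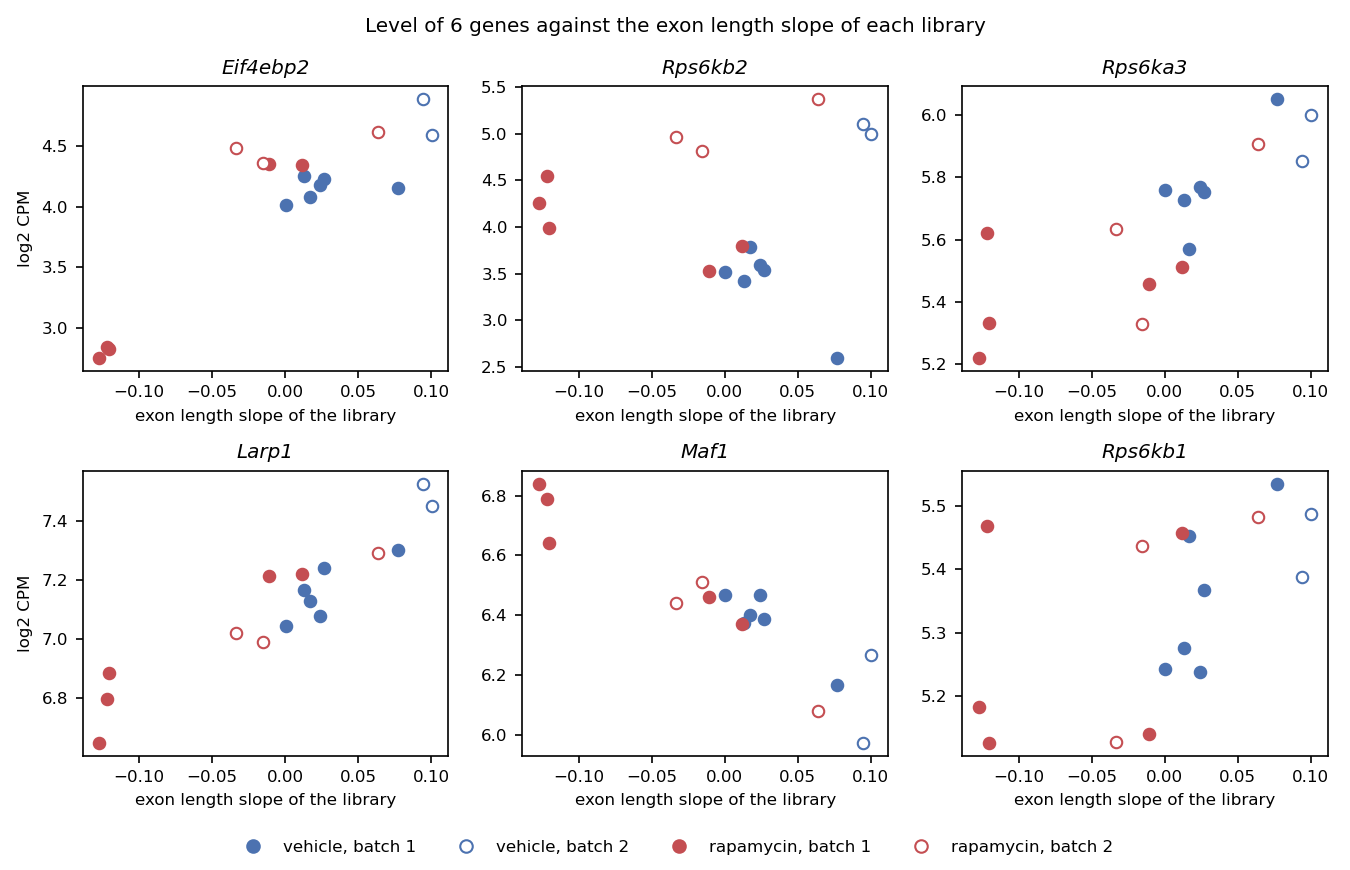
Log2 CPM (y axis) of 6 genes in each of the 16 libraries against the exon length slope of the library (x axis, change in log2 CPM per doubling of exon length). Vehicle is blue, rapamycin red, batch 1 filled and batch 2 open; the 3 rapamycin libraries at slopes of -0.13 to -0.12 hold the lowest Eif4ebp2 and Larp1 and the highest Maf1.

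Likeness over the 16 libraries was described by Pearson's r of log2 CPM after removal of batch means, with all tested genes of at least 5 CPM as candidates. The points share libraries, diets and exon length slopes, so the values are descriptions without a test. Among the members, Larp1 and Maf1 were opposed most closely (r = -0.92), followed by Eif4ebp2 and Maf1 (-0.79) and Rps6ka3 and Maf1 (-0.73). Larp1 and Eif4ebp2 ran together most closely (r = 0.83). Next came Eif4ebp2 and Rps6ka2 (0.78), Rps6ka3 and Larp1 (0.72), Rps6ka2 and Larp1 (0.67) and Eif4ebp1 and Rps6ka1 (0.64). The genes most like Eif4ebp2 were Dok6, 2900097C17Rik and Dcc (r from 0.97 to 0.98). Those most like Rps6ka3 were Gria3, an AMPA receptor subunit, Slc2a13 and Pogz (r from 0.91 to 0.94). Larp1 was followed by Cbl, Abl2 and Kif1a (r from 0.96 to 0.97), and Maf1 by Asna1, Gstp1 and Gpx4 (r of 0.96 each). Rps6kb2 was most like Timm44, A230050P20Rik and Dennd6b (r from 0.95 to 0.96), and Rps6kb1 like Mbnl2, 1700020I14Rik and Elovl4 (r from 0.83 to 0.88). Pdcd4 was most like Ppp3r1, Lrrtm4 and Ppil4 (r from 0.90 to 0.92), and Rps6ka2 like Socs7, Rbm15b and Nrxn2 (r from 0.88 to 0.90). The closest genes were less alike for Eif4ebp1 (Prim1, Slc46a3 and Slc26a11, r from 0.76 to 0.87) and Rps6ka1 (Csf1, Ndst2 and Timeless, r from 0.73 to 0.77).

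The genes around the members were taken as lists, with 95 of 96 genes tested outside the ribosomal proteins. With rapamycin over both sexes 9 rose and 14 fell in edgeR, which is 24.2% against 13.3% of all genes, and their median log2 fold change was 0.02, as over all genes. The lists were chosen with earlier results of these data known, so these shares are a description and no test of enrichment. Of the genes of these lists named below, those that rose had exon lengths of 1218 to 3722 bases and those that fell of 4327 to 11063 bases, and the part of length was not tested for them. Of the regulators above S6 kinase and 4E-binding proteins, mTORC1 and its regulators, 3 of 20 rose and 2 fell. Mtor, the kinase itself, fell by 0.38 on the log2 scale (SE 0.10, adjusted p = 0.0208 in edgeR), from 142 ± 16.1 to 112 ± 22.5 CPM (SD, n = 8 each). The genes that rose were Lamtor4 (log2 fold change 0.45), Lamtor2 (0.34) and Lamtor1 (0.30), subunits of the Ragulator that tethers mTORC1 to lysosomes. Of the 10 genes of ERK and PDK1 input to the RSKs, Pdpk1, which encodes PDK1, fell (-0.31, adjusted p = 0.0294 in edgeR) and Map2k2, which encodes MEK2, rose (0.25, adjusted p = 0.0328).

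Of the 5 further relatives of the S6 kinases and RSKs, Rps6kc1 fell (log2 fold change -0.23, adjusted p = 0.0344 in edgeR) and the other 4 did not pass. Of 10 S6 kinase substrates, 2 rose and 3 fell. Irs1, the insulin receptor adaptor that S6 kinase marks for degradation, fell from 12.9 ± 3.19 to 7.47 ± 3.59 CPM (SD, n = 8 each), or by a log2 fold change of -0.93 (SE 0.17, adjusted p = 0.0107 in edgeR), and was the only DEG among the listed genes. Gsk3b (-0.42) and Rictor (-0.29), a subunit of mTORC2, fell as well. Rps6, which encodes the S6 protein itself, rose by 0.32 (SE 0.09, adjusted p = 0.0328 in edgeR), from 246 ± 52.2 to 289 ± 62.2 CPM (SD, n = 8 each).

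Around the 4E-binding proteins, 0 of the 12 tested genes of eIF4E and the eIF4F complex rose and 3 fell. These were the scaffolds Eif4g1 (log2 fold change -0.27, adjusted p = 0.0178 in edgeR) and Eif4g3 (-0.26) and Cyfip2 (-0.32), a relative of the eIF4E-binding CYFIP1. Around Pdcd4, the ubiquitin ligase subunits Fbxw11 (-0.32) and Btrc (-0.23) fell and Rbx1 (0.32) rose, of 8 genes. Of 24 genes of the RNA polymerase III machinery, which MAF1 represses, 2 rose, among them Crcp (0.32), and 2 fell, Gtf3c4 (-0.36) and Polr3a (-0.29). Of the 6 La-related proteins 0 passed in edgeR, and Larp4 had the smallest unadjusted p (log2 fold change -0.20, adjusted p = 0.118).

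Ribosomal protein genes, whose mRNAs LARP1 binds, rose in 56 of the 84 tested of 91, and 0 fell, in edgeR over both sexes. Over all genes 6.46% rose, and this list too was chosen with earlier results of these data known. The median log2 fold change of the ribosomal protein genes was 0.37 against 0.02 over all genes. The number that rose was 21 when female rapamycin 2 was left out, 22 when female rapamycin 1 was and up to 75 on leaving out another library, and it was 0 without a batch term, in batch 2 only and with the mitochondrial share as a covariate. Rpl14 (0.46, adjusted p = 0.0119), Rplp2 (0.47), Rps19 (0.47) and Rps15 (0.45, adjusted p of 0.0128 to 0.0129 for these 3) had the smallest p, and Rpl14 and Rplp2 are shown above with a pyrimidine run at the annotated start while Rps15 is shown without one. Without female rapamycin 1, female rapamycin 2 and male rapamycin 2, an alternative chosen after seeing the data, 0 of 84 passed in edgeR and the median was 0.20. Only 1 of 17233 genes passed in that fit. With the exon length slope as a covariate 0 passed and the median was 0.01. For the other lists together, likewise, 0 genes passed in either case. Leaving out a single library left between 5 genes (without female rapamycin 1) and 37 genes (without female rapamycin 4) called in those lists.

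**Figure D5:**
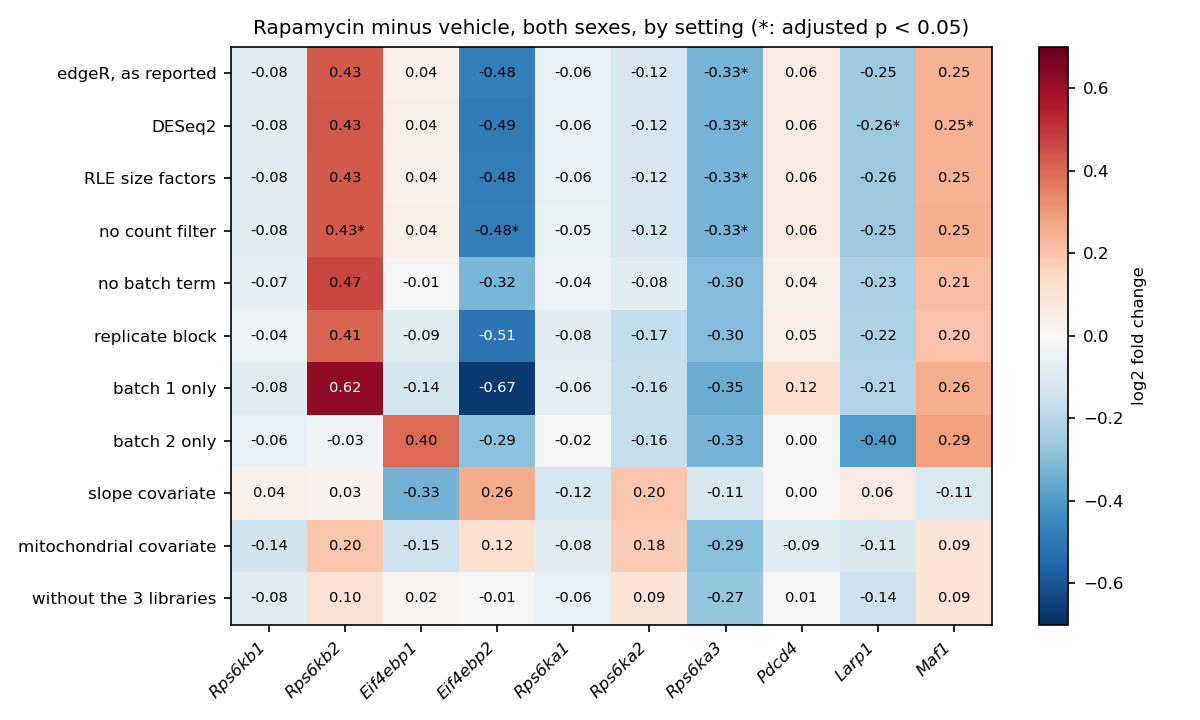
Log2 fold change of each gene (columns), rapamycin minus vehicle over both sexes, under 11 settings (rows), with red for higher and blue for lower with rapamycin and an asterisk for an adjusted p under 0.05. Rps6ka3 is negative in every row, from -0.11 to -0.35, while Eif4ebp2 runs from -0.67 in batch 1 alone to 0.26 with the slope as a covariate.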

How the data were processed

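The deposited table holds raw counts of read pairs for each gene in 16 libraries, which the authors had not normalized. Per the labels and the study's methods, reads were trimmed with Trimmomatic 0.39 (the processing notes also list Trim Galore) and aligned with HISAT2 2.2.1 to GRCm38 (mm10). Per the file headers they were counted with featureCounts 2.0.3 over exons by gene name, without strand, so antisense overlaps can affect the count of a gene. The exon length column of the deposited table was used for levels per kilobase. The same counts in separate group tables were not used.

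Counts were analysed in R 4.3.3 with edgeR 4.0.16 (TMM, filterByExpr with a minimum count of 10, quasi-likelihood tests). Over both sexes the terms were sex, batch and treatment, and within the sexes the 4 groups and batch. Adjusted p values are Benjamini and Hochberg's over all 16553 genes tested, with a threshold of 0.05, and intervals are 95%. DESeq2 1.42.0 was an alternative. Log2 CPM has a prior count of 2. The fits were tested on simulated data. Figures used Python 3.11.15 and matplotlib 3.10.9.

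The members and lists were chosen with earlier results of these data known. All members are named, with up to 4 called genes of smallest adjusted p per list, or 1 of smallest p where none was called. Of the genes named by this rule, 1 is counted but not reported here. The symbol pattern for ribosomal proteins also matched 11 genes that encode none (S6 kinases, RSKs and Rps19bp1), which were left out. The 5′ sequences are RefSeq's, and 6 of 10 members matched an entry.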

Additional observations from a re-analysis of the deposited data

Results flagged for a closer look

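In each of the 4 groups of 4 libraries the level of each member was checked for a library far from the other 3, by the gap to the nearest library over the range of the group. Of 40 such checks 5 passed Dixon's 95% critical value, and chance flags about 1 in 20. Rps6kb1 in female rapamycin 4 was high (44.6 CPM, nearest 36.2 CPM, ratio 0.859), and in male rapamycin 1 it was low (35.2 CPM, nearest 43.2 CPM, ratio 0.892). Rps6kb2 in male vehicle 4, the group's library of batch 2, was high (31.9 CPM, nearest 13.7 CPM, ratio 0.895). Eif4ebp1 in female rapamycin 1 was low (4.13 CPM, nearest 5.37 CPM, ratio 0.901). Eif4ebp2 in male rapamycin 2 was low (7.06 CPM, nearest 20.2 CPM, ratio 0.982), and the low values of female rapamycin 1 and 2 are 2 of 4 in their group, which this check cannot pick out.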

How the results depend on the processing

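Over both sexes 1 member was called. The number was 3 in DESeq2, 3 without the filter on low counts (Rps6kb2, Eif4ebp2 and Rps6ka3) and 0 without a batch term, with exon length slope or mitochondrial share as a covariate, in batch 1 only, in batch 2 only, under either DEG rule (a fold of 1.5, or a log2 fold change over 0.5), and without the 3 libraries of low slope. The share of all genes called moved too, from 13.3% to 8.68% without the filter and 0.858% without a batch term. It was 0% with either covariate, 7.45% in batch 1 only and 0.017% in batch 2 only. Without the 3 libraries, a fit chosen after seeing the data, it was 0.0058%. DESeq2 called 21.9% of the 14303 genes to which it gave an adjusted p. Leaving out single libraries gave 0 to 3 members, being 0 without female rapamycin 1, female rapamycin 2 or male vehicle 4 and 3 without female rapamycin 4, male rapamycin 1 or male rapamycin 3. In the same order, 4.26%, 5.15% and 7.34% of all genes were called where 0 members were. Where 3 members were called, the shares of all genes were 20%, 15.4% and 17.3%. In females the number was 0, against 1 in DESeq2 (with 11% of 13660 genes called) and 2 without the filter on low counts (Rps6kb2 and Eif4ebp2, with 5.55% of all genes called). It was 0 to 4 on leaving out single libraries (4 without female rapamycin 4, with 12.6% of all genes called). In the lists 23 genes were called, against 0 without a batch term, with either covariate, in batch 2 only and without the 3 libraries, 8 in batch 1 only, and 5 to 37 on leaving out single libraries. The causes were not tested.

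With the replicate number as a block in place of batch, 0 members (Rps6ka3 adjusted p = 0.0566, edgeR), 13 genes of the lists and 7.84% of all genes were called. The labels do not say that a number marks a shared litter or day. Deviations of libraries with the same number correlated by -0.16 to 0.67 (median 0.25, 18 of 21 pairs over 0.1) and those with different numbers by -0.52 to 0.41 (median -0.10, 19 of 75 over 0.1), and 12 of 16 libraries correlated best with their own number, a hint from the data and not the design.

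Log2 fold changes over both sexes that turned direction, all of them uncalled, were as follows. With the slope as a covariate they were 0.036 for Rps6kb1, -0.33 for Eif4ebp1, 0.26 for Eif4ebp2, 0.20 for Rps6ka2, 0.064 for Larp1 and -0.11 for Maf1. With the mitochondrial share they were -0.15 for Eif4ebp1, 0.12 for Eif4ebp2, 0.18 for Rps6ka2 and -0.087 for Pdcd4. Rps6kb2 was -0.028 in batch 2 only, and Rps6ka2 was 0.090 without the 3 libraries. Eif4ebp1 was -0.012 without a batch term, -0.085 with the replicate block, -0.14 in batch 1 only and -0.086 to 0.15 on leaving out single libraries, and Rps6ka1 was -0.090 to 0.0038 on leaving out single libraries. Depth was lowest for Eif4ebp1, at 43 to 143 read pairs.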
